A study of Serinus canaria and Ploceus bicolor and Uraeginthus cyanocephalus with 155 samples.

Results

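The HVC of blue-capped cordon-bleus (Uraeginthus cyanocephalus) was compared with the entopallium of the same species, to find the transcripts whose level separates the song nucleus from a visual area of the same forebrain. All cordon-bleu arrays of the series were used, which gave 24 of 155 arrays, 12 of HVC and 12 of entopallium. Each tissue was represented by 6 males and 6 females, and each array held the RNA of 1 bird and tissue. The birds were adult, were kept on long days, were breeding, had received no treatment and sang, in both sexes and both tissues alike. The 24 arrays came from 14 birds, and 10 of them (6 males and 4 females) provided both tissues. For comparison, the same contrast was taken from 24 arrays of forest weavers (Ploceus bicolor) and 24 arrays of breeding canaries (Serinus canaria), again with 6 males and 6 females per tissue, all labelled as untreated, breeding adults on long days. The weavers of both sexes sang and had been caught in the wild, whereas the cordon-bleus and canaries were bred in captivity. Among the breeding canaries the males sang and the females did not. By the numbers in the sample titles, the breeding canary females and some of the weavers also gave both tissues. The breeding canary males shared no number between the tissues. The main fits treated all arrays as independent, including those of the 10 cordon-bleus that gave both tissues. At the end, 5 further groups of adult canaries on short days, labelled as not breeding, were drawn on. They were untreated males and untreated females that did not sing, untreated females that sang spontaneously, and males and females that sang after treatment with testosterone.

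HVC is a premotor nucleus of the songbird forebrain. It times the song pattern, projects to the motor output of the song system and to its basal ganglia loop, carries receptors for sex steroids, and continues to receive new neurons in adult birds. The entopallium is the forebrain target of the visual pathway that runs from the optic tectum through the thalamus, and it takes no part in the song system. Membership of the song system, the place in the forebrain and the mixture of cells all differ between them, and cannot be told apart in these samples.

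Expression had been measured with a custom Affymetrix exon array whose probes were designed on the zebra finch. It gave a normalised log2 level for 26061 transcripts in every sample, so that a difference of 1 is a doubling. The identifiers of the transcripts are not paired with gene names in the files, and 0 of them matched the reference table of 17915 canary genes. The transcripts are therefore given by identifier, without a role, and the tissue labels could not be checked against the known marker genes of HVC, of neurons or of glia. Several transcripts can belong to the same gene, so that counts of transcripts are not counts of genes. The dissected pieces were bulk tissue, in which fewer cells of a type and less RNA per cell cannot be told apart. The number of arrays limits the precision of all values.

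The tissue was the main source of variation among the cordon-bleu arrays. The first principal component took 58.5% of the variance and placed the HVC arrays at 33.2 to 42.9 and the entopallium arrays at -42.6 to -27.1. Spearman correlations across transcripts averaged 0.988 within HVC, 0.986 within the entopallium and 0.950 between the tissues. Between the tissues, arrays of the same bird correlated at 0.954 on average, and arrays of different birds, of the same or the other sex, at 0.950. The second component (8.76%) did not separate the tissues, with HVC at -22.4 to 18.6 and the entopallium at -25.1 to 33.9. The third (4.10%) separated the sexes in both tissues, with males at 1.2 to 19.3 and females at -22.4 to 0. No pair of arrays of the same group was identical (0 of 60 pairs).

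**Figure D1:**
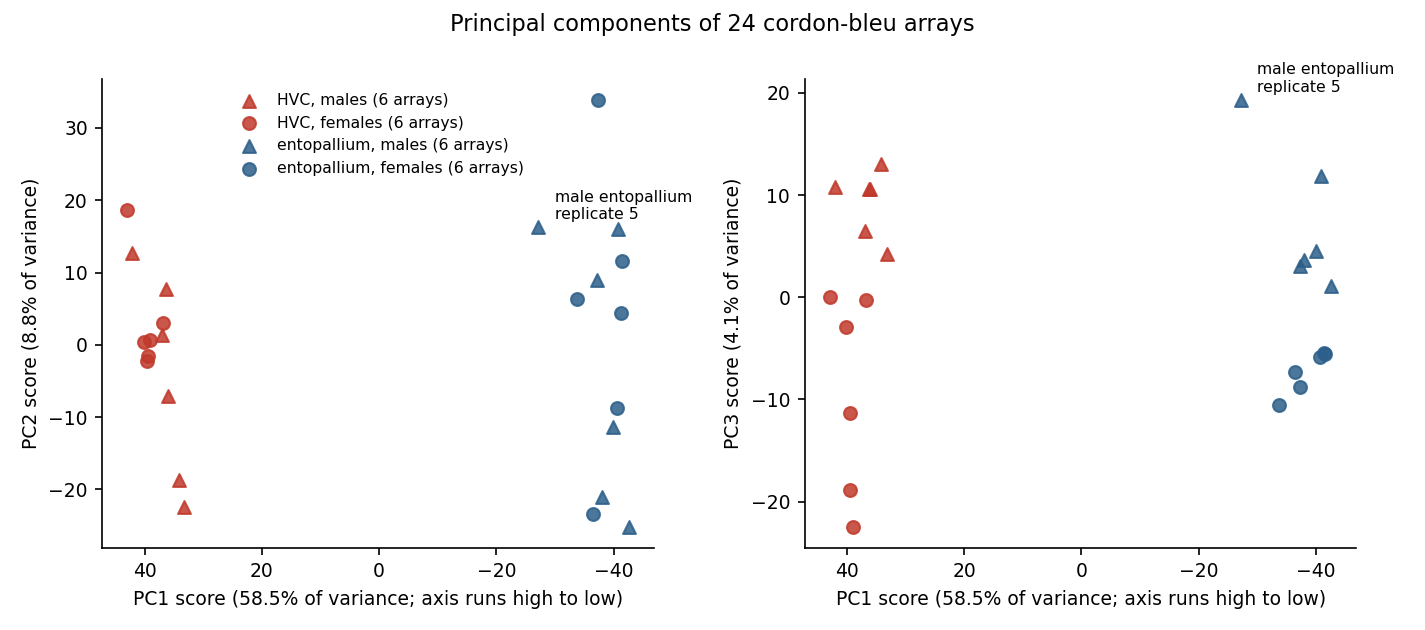
Scores of the 24 cordon-bleu arrays on the first principal component (horizontal axis, running high to low) against the second (left) and the third (right). Each point is an array, with colour for tissue and shape for sex; the tissues lie on opposite sides of 0 on the first component, the sexes divide on the third, and the entopallium array of male replicate 5 lies closest to HVC.

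An entopallium array, male replicate 5, stood apart. Its score on the first component was the highest of the entopallium, at -27.1. Of the 2155 transcripts called higher in HVC (below), 696 had their highest entopallium level on this array (32.3%), and the next array held 234. The mean level of the transcripts called higher in HVC minus that of the transcripts called lower was -0.48 on this array, against -0.81 to -0.59 on the other entopallium arrays, and it was 1.1 to 1.23 on the HVC arrays. The gap between the tissues on this measure follows from the choice of the transcripts on these same arrays. Male entopallium replicate 5 was kept, and for some of the results the values without it are also given. The median level of an array also differed between the tissues. It averaged 7.19 ± 0.04 in HVC and 7.24 ± 0.03 in the entopallium (SD, n = 12 each), a difference of -0.05 (two-sided permutation test, p = 0.00338, adjusted over 3 array measures 0.0101). Within the 10 birds with both tissues, whose arrays are not independent, it was lower in HVC in 9, by a mean difference of -0.05 ± 0.06 (SD; two-sided exact sign-flip permutation test, p = 0.0176, adjusted 0.0528). The 1st percentile of the levels averaged 2.56 in HVC and 2.62 in the entopallium, a difference of -0.06 that did not pass the adjustment (permutation test, p = 0.0443, adjusted 0.0664). Within birds it was lower in HVC in 9 of 10 (exact permutation test, p = 0.0703, adjusted 0.105). The deviation of an array from the mean of the others of its group averaged 0.22 ± 0.02 in HVC and 0.23 ± 0.04 in the entopallium (SD, n = 12 each; permutation test, p = 0.34).

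HVC and entopallium differed in 4264 transcripts, 16.4% of those tested, when the adjusted p had to be under 0.05 and the log2 difference at least 0.5 in size (limma with sex as a covariate and Benjamini-Hochberg adjustment). Of these, 2155 (8.27%) were higher in HVC and 2109 (8.09%) were lower. The adjusted p alone was passed by 14745 transcripts (56.6%), 5822 of them higher in HVC (39.5%) and 8923 lower, and the smallest adjusted p was 1.33e-24. The median difference over all transcripts was -0.08. After quantile normalisation it was -0.03, and 2311 transcripts were called higher and 1898 lower. By the adjusted p alone, 6644 were then higher (46.8%) and 7557 lower. Without male entopallium replicate 5, 2182 transcripts were higher and 2161 were lower.

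Most of the called differences were moderate. Among the transcripts that were higher in HVC, 1412 (65.5%) differed by less than 1 on the log2 scale, 637 by 1 to 2 and 106 by 2 or more, of which 15 reached 3. Among those that were lower, 1544 (73.2%) differed by less than 1, 489 by 1 to 2 and 76 by 2 or more, of which 18 reached 3. The median size was 0.81 on the higher side and 0.74 on the lower side. The levels of the 12 HVC and 12 entopallium arrays did not overlap for 3986 transcripts of all those measured (15.3%), 2156 of them higher in HVC (8.27%) and 1830 lower (7.02%). This was the case for 1617 of the 2155 transcripts called higher (75%) and for 1378 of the 2109 called lower (65.3%). Among the 10 birds with both tissues, 3999 transcripts were higher in HVC in every bird and 4549 were lower in every bird, together 32.8% of all. They included 2025 of the transcripts called higher (94.0%) and 1909 of those called lower (90.5%). The shares of called transcripts, here and without overlap, are raised by the choice, since the same arrays made the calls.

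The 2 transcripts highest by difference among those whose tissues did not overlap were ENSGALT00000014509 and ENSTGUT00000004647. ENSGALT00000014509 had levels of 9.5 to 10.6 with a median of 9.96 in HVC, against 5.19 to 7.39 with a median of 5.59 in the entopallium. The entopallium value of 7.39 belonged to male replicate 5, and the other 11 arrays reached at most 5.83. The difference was 4.32 (SE 0.17, n = 12 per tissue, limma adjusted p = 3.04e-17), or 19.95-fold, and 4.48 (SE 0.10) without this array. In the 10 birds with both tissues HVC was higher by 2.53 to 5.02. The common sign is fixed by the choice of transcripts without overlap, here and for the other transcripts chosen this way.

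ENSTGUT00000004647 had levels of 9.84 to 10.9 with a median of 10.3 in HVC, against 5.71 to 7.77 with a median of 6.09 in the entopallium. Male replicate 5 was again the highest entopallium array, and the next was at 6.34. The difference was 4.16 (SE 0.17, limma adjusted p = 3.96e-17), or 17.9-fold, and 4.31 (SE 0.10) without that array. Among the 10 birds it was 2.46 to 4.91. Whether this transcript and ENSGALT00000014509 belong to the same gene is not known.

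The 2 transcripts lowest by difference were ENSTGUT00000009621 and ENSTGUT00000013079. ENSTGUT00000009621 had levels of 6.83 to 7.30 with a median of 6.95 in HVC, against 10.6 to 11.3 with a median of 11.2 in the entopallium. Here too male entopallium replicate 5 was nearest to HVC, at 10.6, and the others were at 11.1 or more. The difference was -4.19 (SE 0.07, limma adjusted p = 1.33e-24), and -4.24 (SE 0.05) without that array. ENSTGUT00000013079 had levels of 7.15 to 8.26 with a median of 7.89 in HVC, against 11.7 to 12.2 with a median of 11.9 in the entopallium, a difference of -4.15 (SE 0.10, limma adjusted p = 1.7e-21). Among the 10 birds with both tissues the difference was -4.41 to -3.35 for ENSTGUT00000009621 and -4.83 to -3.55 for ENSTGUT00000013079. For both, and for the 2 transcripts above, the difference smallest in size came from the bird of male entopallium replicate 5.

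**Figure D2:**
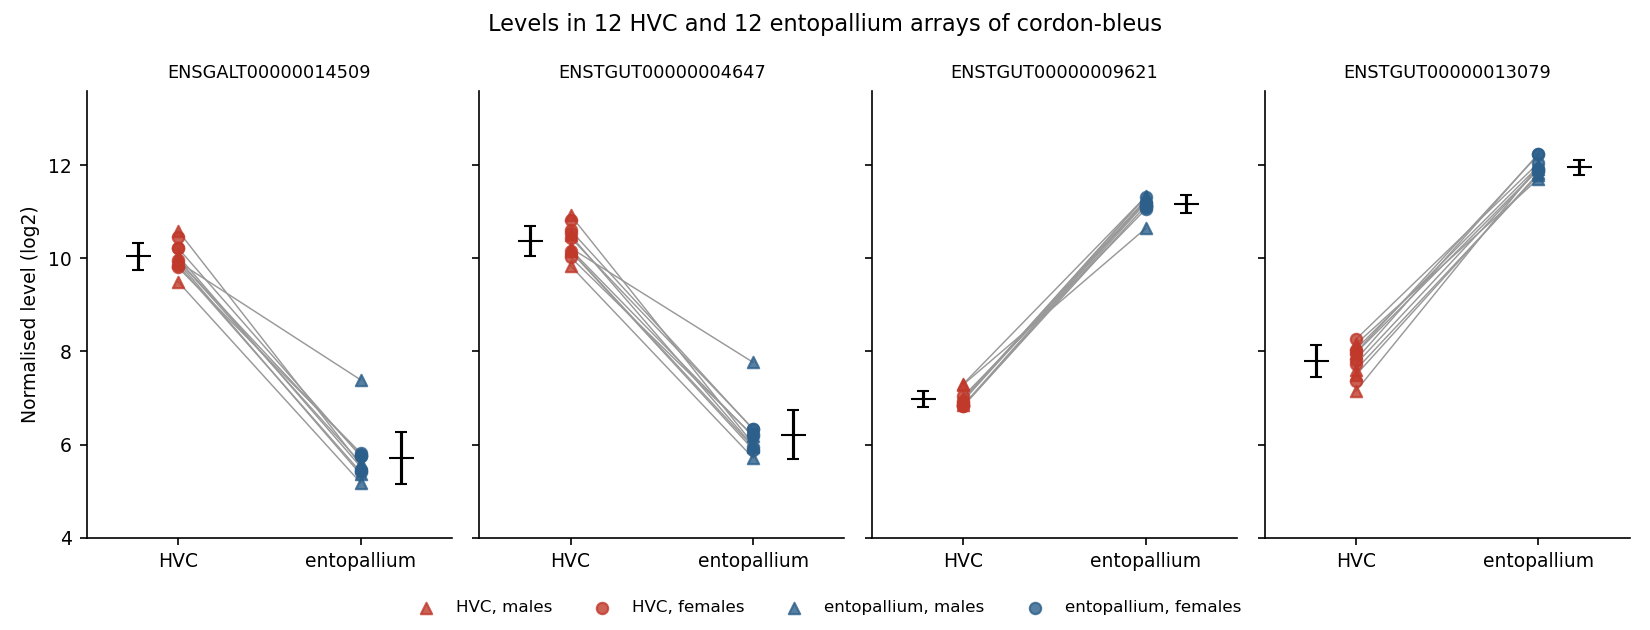
Normalised log2 levels of 4 transcripts in cordon-bleu HVC (left of each panel) and entopallium (right), with a point for each of the 12 arrays per tissue, lines joining the tissues of the 10 birds with both, and the mean with SD (n = 12) beside the points. The tissues do not overlap in any panel, and the male entopallium array at 7.39 and 7.77 in the first and second panel is replicate 5.

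The called transcripts were found at all levels but more often among the bright ones. When transcripts were divided by mean level into 4 classes of the same size, 9.87% of the dimmest class were called, 15.2% and 17.4% of the middle classes, and 23.0% of the brightest class. In the dimmest class slightly fewer were higher than lower (298 and 345), and in the brightest class more were higher than lower (834 and 666). Few calls rested on a tissue mean below 3.94, the 5th percentile of all levels, which is not a limit of detection. Of the 2155 transcripts called higher, 44 had an entopallium mean below it, and 63 of the 2109 called lower had an HVC mean below it. How many calls rested on a tissue without expression is not known. By origin of the identifier, the share called was 17.5% of 11936 zebra finch Ensembl transcripts, 13.4% of 10482 predicted RefSeq mRNAs and 12.8% of 897 non-coding RefSeq transcripts. It was 32.2% of 171 curated RefSeq mRNAs and 25.8% of 523 chicken Ensembl transcripts.

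The spread between birds of the same sex was compared between the tissues. The median SD of a transcript was 0.15 in HVC and 0.16 in the entopallium, and 41.3% of transcripts varied more in HVC. Among the transcripts called higher in HVC it was 0.18 in HVC and 0.17 in the entopallium, and 54.1% varied more in HVC. Among those called lower it was 0.18 in HVC and 0.19 in the entopallium. These entopallium values include male replicate 5, and they were not computed without it.

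The tissue difference was found in both sexes, and no transcript was called different between them. In males alone, 2068 transcripts were higher in HVC (7.94%) and 2004 were lower (7.69%), together 15.6% of all. In females alone, 2295 were higher (8.81%) and 2315 were lower (8.88%), together 17.7%. Between them 3620 calls were shared, 88.9% of the male calls and 78.5% of the female calls, and 0 were called in opposite directions. All 4264 transcripts called over both sexes lay on the same side in males and in females fitted apart. That is largely fixed by the choice, since the difference over both sexes is the mean of the male and female differences. Across transcripts, which are not independent replicates, the male and female differences correlated at r = 0.958 and rho = 0.898. They come from different birds.

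The difference of the tissue differences, males minus females, was called for 0 transcripts (limma, smallest adjusted p = 0.565), and 538 passed an unadjusted p of 0.05, where 1303 are expected of uniform p-values. The 95% confidence interval had a median half-width of 0.27. It lay wholly within 0.5 on either side of 0 for 81.2% of transcripts and within 1 for 98.0%. For the remaining transcripts the interval does not exclude a larger sex effect on the tissue difference at this number of arrays, and such an effect is not shown to be absent. The smallest p belonged to ENSTGUT00000005408, which was chosen after its value was seen. Its HVC levels were 4.6 to 4.77 in males and 4.86 to 5.69 in females, and its entopallium levels were 3.98 to 4.39 in males and 3.76 to 4.06 in females. The tissue difference was 0.55 in males and 1.29 in females, and males minus females gave -0.73 (SE 0.14, limma adjusted p = 0.565). When each array was omitted in turn, a call arose only without female HVC replicate 3. It was this transcript, at -0.81 (SE 0.13, limma adjusted p = 0.0301). That omission was singled out after its result was seen.

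**Figure D3:**
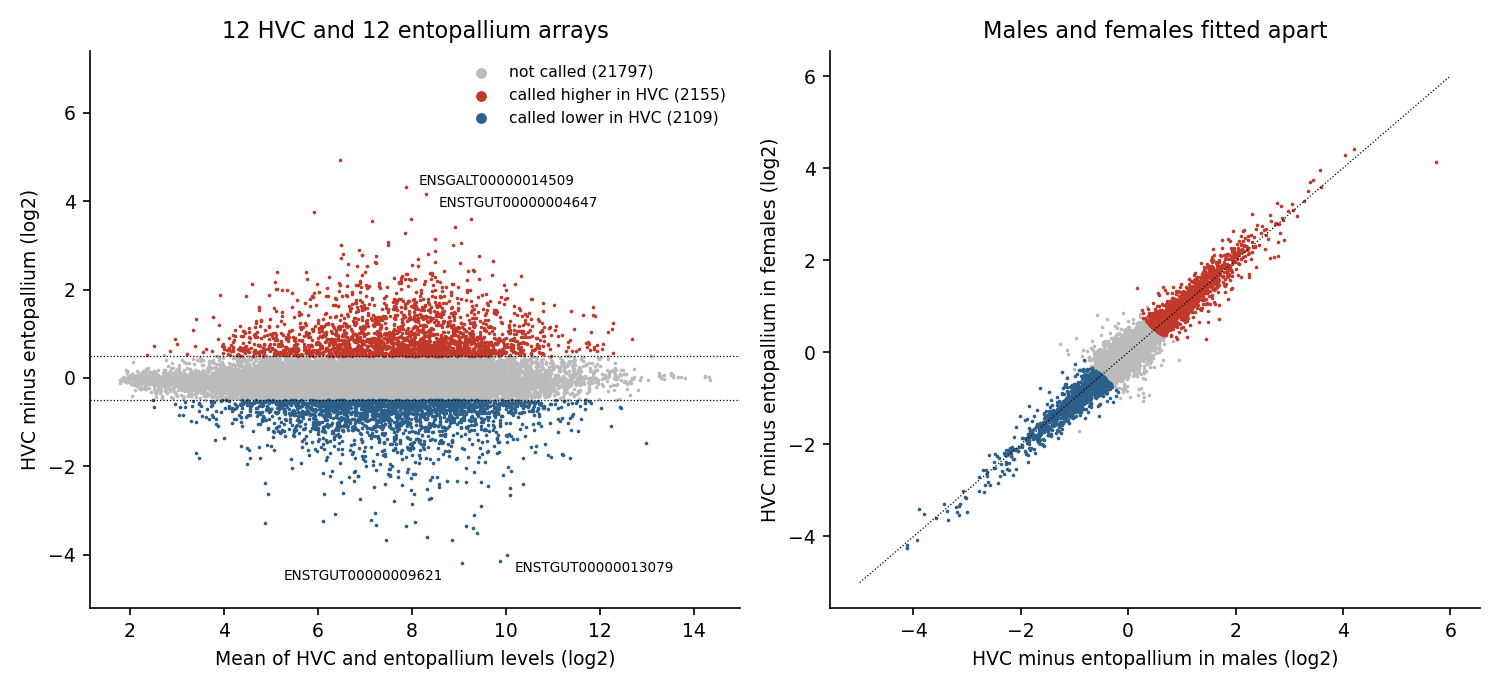
Left, the log2 difference HVC minus entopallium of each of 26061 transcripts against the mean of its tissue levels, with dotted lines at 0.5 and -0.5 and the 4 named transcripts labelled. Right, the same difference in males (horizontal) and in females (vertical) from separate fits, with the line of equality dotted. Called transcripts lie on the same side of 0 in both sexes, which their choice over both sexes largely fixes.

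The contrast was then set beside that of 2 other species. In forest weavers 1694 transcripts were higher in HVC (6.5%) and 1489 were lower (5.71%), together 12.2% of all. In breeding canaries 1581 were higher (6.07%) and 1679 were lower (6.44%), together 12.5%. A forest weaver array, female HVC replicate 1, lay between the tissues. The mean level of the transcripts called higher in cordon-bleu HVC minus that of those called lower was -0.03 on this array. It was 0.63 to 0.87 on the other 11 weaver HVC arrays and -0.58 to -0.39 on the weaver entopallium arrays. Without it, 1782 transcripts were higher and 1605 were lower in weaver HVC. Probes designed on the zebra finch may bind RNA of these species unequally, and unequal binding and unequal expression cannot be told apart across species.

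Of the transcripts higher in cordon-bleu HVC, 1095 were also called higher in weaver HVC (50.8% of the cordon-bleu calls and 64.6% of the weaver calls). In canary HVC, 1095 were also called higher (50.8% of the cordon-bleu calls and 69.3% of the canary calls). Of those lower in cordon-bleu HVC, 870 were called lower in weavers (41.3% of the cordon-bleu and 58.4% of the weaver calls) and 995 in canaries (47.2% of the cordon-bleu and 59.3% of the canary calls). Only 45 transcripts were called in the opposite direction in weavers, and 36 in canaries. All 3 species shared 814 transcripts that were higher and 640 that were lower. Without the weaver array between the tissues, 842 and 670 were shared, and without cordon-bleu male entopallium replicate 5, 823 and 645. Across all transcripts, the differences in cordon-bleus correlated with those in weavers at r = 0.694 and with those in canaries at r = 0.713.

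These 4 transcripts, named for their differences in cordon-bleus without overlap of the tissues, were called in the same direction in both other species. ENSGALT00000014509 differed by 4.32 in cordon-bleus, against 3.93 (SE 0.09) in weavers and 4.28 (SE 0.09) in canaries. The cordon-bleu difference minus the weaver difference was 0.39 (95% confidence interval -0.02 to 0.79), and minus the canary difference it was 0.04 (-0.37 to 0.45). ENSTGUT00000004647 differed by 4.16 in cordon-bleus, against 3.95 (SE 0.10) in weavers and 4.34 (SE 0.08) in canaries.

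The 2 named transcripts that were lower in HVC differed less in canaries than in cordon-bleus. They were chosen for the size of their cordon-bleu difference, which favours a smaller one elsewhere, and the p-values do not allow for that choice. ENSTGUT00000009621 differed by -4.19 in cordon-bleus, against -3.29 (SE 0.07) in canaries, a difference of -0.90 (SE 0.10, limma adjusted p = 5.71e-10). ENSTGUT00000013079 differed by -4.15 in cordon-bleus, against -2.40 (SE 0.09) in canaries, a difference of -1.76 (SE 0.14, limma adjusted p = 2.19e-14). In weavers they differed by -3.67 (SE 0.28) and -3.48 (SE 0.29), values that the array between the tissues moved, since it had 10.6 and 11.3 where the other weaver HVC arrays had at most 7.34 and 8.21. Without it the weaver differences were -3.96 (SE 0.07) and -3.77 (SE 0.12), and neither was called different from the cordon-bleus with or without it. For the 2 named transcripts that were higher in HVC, this array was close to the other weaver HVC arrays. It had 9.10 for ENSGALT00000014509, with the next at 9.19, and 9.54 for ENSTGUT00000004647, with the next at 9.71.

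**Figure D4:**
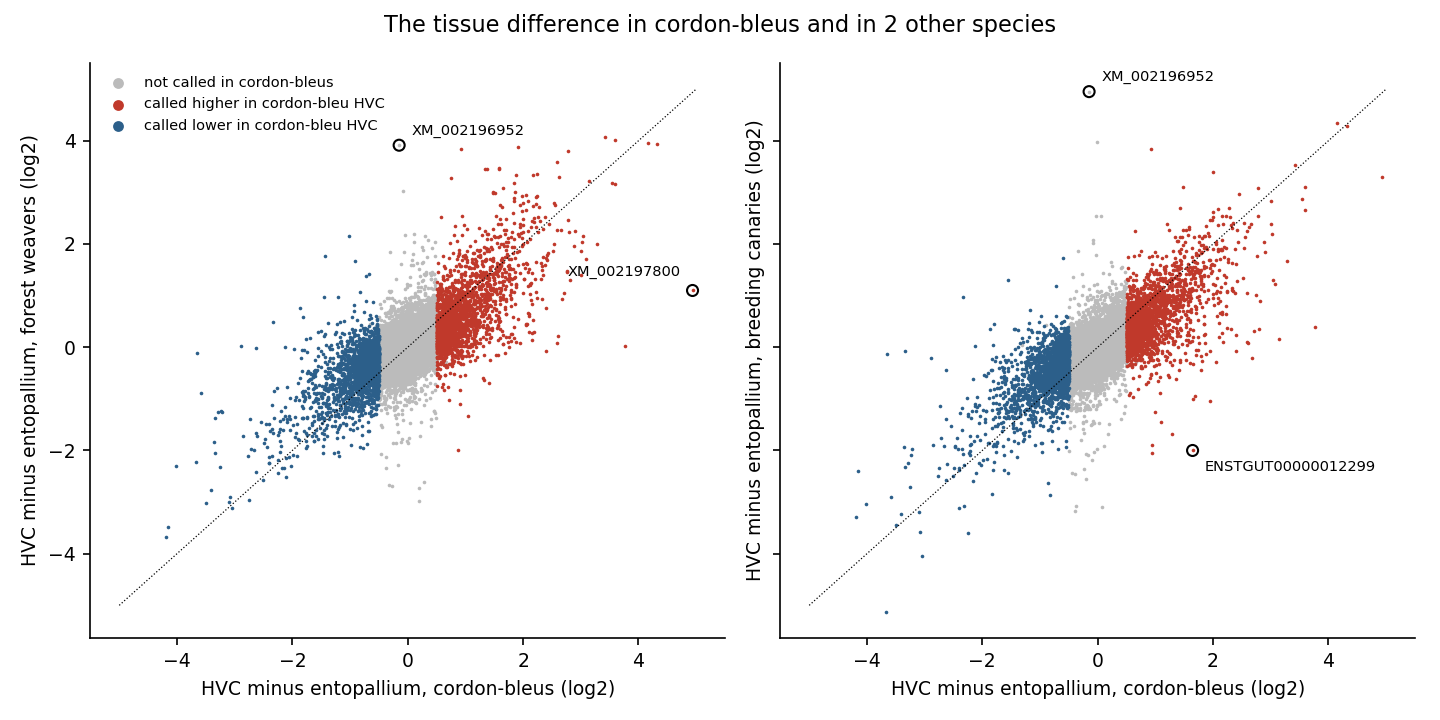
The log2 difference HVC minus entopallium of each transcript in cordon-bleus (horizontal) against that in forest weavers (left) and in breeding canaries (right), coloured by the call in cordon-bleus, with the line of equality dotted. The cloud follows the line loosely (r = 0.694 and 0.713), and the circled transcripts are those with the largest called difference between species in each direction.

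The tissue difference itself was tested between species with an interaction term. It was called different between cordon-bleus and weavers for 2844 transcripts (10.9%), with 1223 higher in cordon-bleus (4.69%), that is with a more positive HVC minus entopallium, and 1621 lower (6.22%). Without weaver female HVC replicate 1 there were 1195 and 1595. Between cordon-bleus and breeding canaries 2388 transcripts were called (9.16%), 1215 higher (4.66%) and 1173 lower (4.5%). Both tests share the 24 cordon-bleu arrays. Of the transcripts higher in cordon-bleu HVC, 363 (16.8%) were called with a larger difference than in both other species, and 224 of them were called in neither of the others. Of those lower in cordon-bleu HVC, 395 (18.7%) were called with a larger difference than in both, and 262 were called in neither. These transcripts were chosen for their call in cordon-bleus, so that more larger than smaller differences are found among them by construction.

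XM_002197800 had the largest positive difference between cordon-bleus and weavers. It also had the largest tissue difference of all transcripts in cordon-bleus, but its tissues overlapped. Its cordon-bleu levels were 4.70 to 11.1 with a median of 9.17 in HVC, against 3.48 to 5.16 with a median of 3.97 in the entopallium. The lowest HVC array, female replicate 6 at 4.70, lay below the highest entopallium array, and the other 11 HVC arrays were at 7.71 or more. The tissue difference was 4.94 (SE 0.43, limma adjusted p = 1.58e-10) in cordon-bleus, 1.1 (SE 0.19, adjusted p = 3.38e-05) in weavers and 3.30 (SE 0.32, adjusted p = 2.25e-09) in canaries. Cordon-bleus exceeded weavers by 3.84 (SE 0.49, adjusted p = 1.86e-08) and canaries by 1.63 (SE 0.56, adjusted p = 0.0173), and without female HVC replicate 6 by 4.19 (SE 0.36) and 1.99 (SE 0.45). Entopallium medians were 3.97 in cordon-bleus, 4.06 in weavers and 4.26 in canaries, whereas HVC medians were 9.17, 5.10 and 7.5. The entopallium medians lay near the bottom of the scale, where the 5th percentile of all levels was 3.94. Their likeness therefore does not show that expression was alike.

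The HVC levels of XM_002197800 varied widely among cordon-bleus. They were 7.71 to 11.1 with a median of 10.0 in males and 4.70 to 9.70 with a median of 8.32 in females. The tissue difference was 5.73 (SE 0.46) in males and 4.14 (SE 0.58) in females, and males minus females gave 1.59 (SE 0.81, limma adjusted p = 1), or 0.94 (SE 0.57) without female replicate 6.

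XM_002196952 behaved in the opposite way and was the transcript with the largest negative difference against both species. Its cordon-bleu levels were 4.58 to 5.70 with a median of 4.79 in HVC, against 4.87 to 5.28 with a median of 5.06 in the entopallium, and the tissues overlapped. The tissue difference of -0.15 (SE 0.10, limma adjusted p = 0.189, 95% confidence interval -0.35 to 0.05) was not called. Both medians lay in the range of the dimmest of the 4 classes of mean level, which ended at 5.935. The likeness of the tissues therefore does not show that expression was alike. In weavers the levels of XM_002196952 were 7.06 to 10.1 in HVC, against 4.65 to 4.99 in the entopallium, a difference of 3.91 (SE 0.25, limma adjusted p = 1.56e-12). In canaries they were 8.66 to 11.7 in HVC, against 4.69 to 5.58 in the entopallium, a difference of 4.95 (SE 0.28, adjusted p = 9.36e-14). The cordon-bleu difference was lower than that of weavers by -4.06 (SE 0.27, adjusted p = 3.28e-16) and lower than that of canaries by -5.10 (SE 0.31, adjusted p = 5.27e-18). No HVC array of the cordon-bleus reached the lowest HVC array of either other species.

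ENSTGUT00000012299 had the largest positive difference against canaries and changed direction between the species. Its cordon-bleu levels were 8.86 to 9.99 with a median of 9.34 in HVC, against 7.20 to 8.10 with a median of 7.70 in the entopallium, without overlap. Its canary levels were 6.65 to 7.57 with a median of 7.14 in HVC, against 8.51 to 9.52 with a median of 9.20 in the entopallium, again without overlap. The tissue difference was 1.65 (SE 0.12, limma adjusted p = 2.64e-12) in cordon-bleus and -2.0 (SE 0.10, adjusted p = 8.66e-15) in canaries, and cordon-bleus minus canaries gave 3.65 (SE 0.16, adjusted p = 2.85e-23). In weavers it was 0.94 (SE 0.20, adjusted p = 0.000346), with overlapping tissues. In the 10 cordon-bleus with both tissues HVC was higher by 0.90 to 2.17, with a common sign that the absence of overlap fixes.

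**Figure D5:**
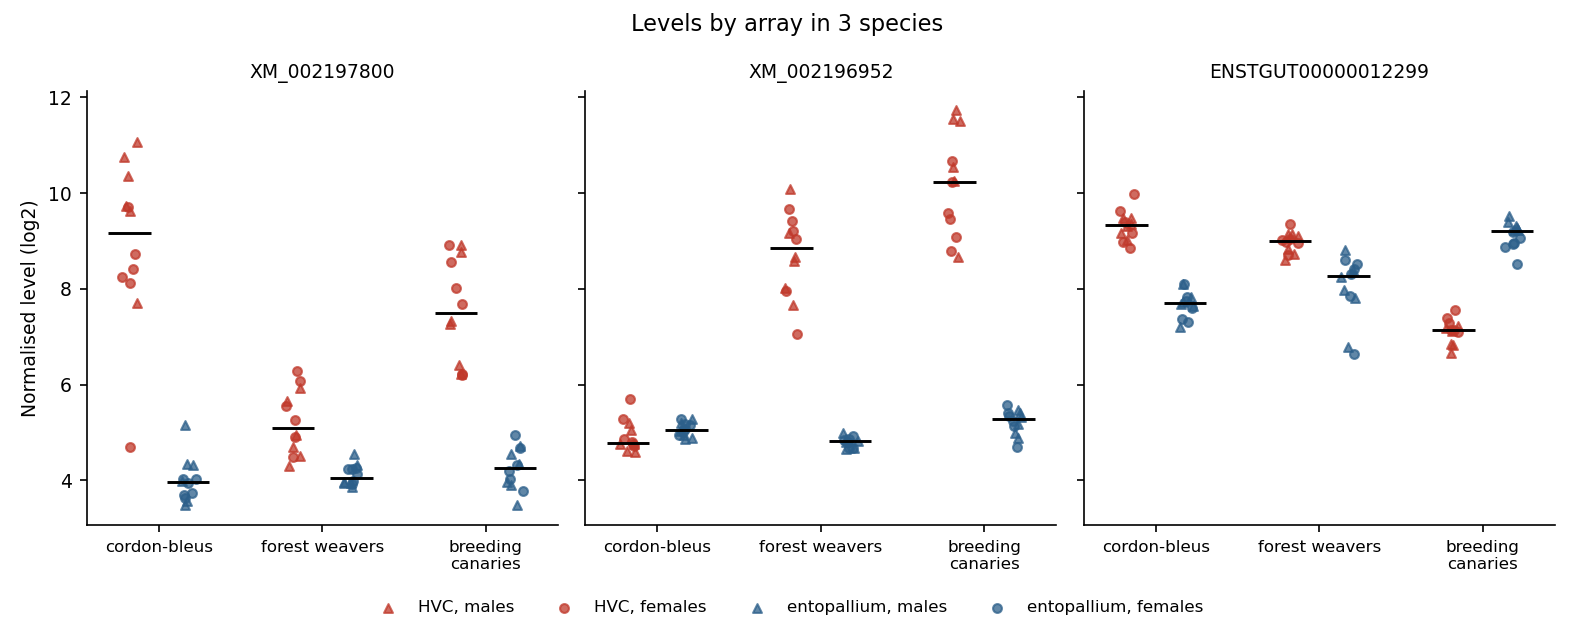
Normalised log2 levels of 3 transcripts in HVC (left of each pair) and entopallium (right) of cordon-bleus, forest weavers and breeding canaries, with a point per array (12 per tissue and species, shape for sex, spread sideways for legibility) and a line at the median. The HVC median of XM_002197800 was highest in cordon-bleus, XM_002196952 was high in HVC of the other species alone, and ENSTGUT00000012299 was higher in HVC in cordon-bleus and lower in HVC in canaries.

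Finally, the calls were followed through 8 other contrasts of HVC and entopallium, those of the forest weavers and of 7 canary groups (breeding, non-breeding and testosterone-treated birds of each sex, and spontaneously singing females). These contrasts called 12.0% to 15.8% of transcripts, and each shared 45.6% to 53.0% of the transcripts higher in cordon-bleu HVC and 41.3% to 49.6% of those lower. In all 8, 568 of the 2155 were higher (26.4%) and 413 of the 2109 were lower (19.6%). In none, 493 were higher (22.9%) and 554 were lower (26.3%). The 7 canary contrasts had 11 or 12 arrays each, against 24 in cordon-bleus and in weavers. A missing call there does not show that the difference was absent. The transcripts shared by all had a median cordon-bleu difference of 1.29 on the higher side and -1.20 on the lower side. Those shared by none had medians of 0.63 and -0.63. In addition to the weaver array named above, 2 entopallium arrays of testosterone-treated female canaries lay between the tissues, at 0.14 and -0.03 on the measure that was -0.31 to -0.18 on the other 4. Without these 3 arrays, 618 transcripts were higher in all contrasts and 450 were lower, and 482 and 542 were found in none.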

How the data were processed

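The deposited values are log2 transcript levels that the authors describe as normalised. How they were corrected, summarised and normalised is not stated, and Affymetrix Expression Console is named in the submitters' processing notes without settings or version. The study itself tested single probes in ChipInspector, which needs probe intensities, so transcript levels were tested in R 4.3.3 by limma 3.58.1 (linear fit and empirical Bayes moderation, no filter). Calls needed a Benjamini-Hochberg adjusted p (over 26061 transcripts) under 0.05 and a log2 difference of at least 0.5 in size, for HVC minus entopallium with sex as a covariate, within each sex, and between sexes and species by interaction. Array measures were compared with 100000 permutations in scipy 1.17.1, and within birds by exact sign changes, a test added after seeing the data. The fits were tested on simulated data with independent noise. These held neither a correlation between tissues of a bird nor arrays between the tissues, so the test does not cover them. The arrays, lists and tests were chosen with earlier results of these data known.

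Named transcripts are the 2 highest and 2 lowest by difference among called transcripts without overlap of the tissues, and the largest called difference in each direction of each interaction. The marker and pathway lists that had been drawn up, 23 with 294 genes, could not be applied without names.

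Bird numbers in the sample titles paired the tissues of 10 cordon-bleus. The main fits held no block for the bird. Such blocks were fitted only as alternatives in cordon-bleus, and not in the other species. Deviations from the group means correlated between tissues of the same bird at -0.19 to 0.48, over 0.1 in 8 of 10. After removal of the leading component (23.3% of this variation) they correlated at 0.12 to 0.27, against a median of -0.01 between different birds. In 8 of the 10 birds the HVC array then correlated best with the entopallium array of its own bird. A random block for the bird estimated a correlation of 0.19. That the birds of a group are separate animals follows from these numbers. Alternatives were other scalings, a filter on dim transcripts, other thresholds, limma options, blocks and omission of each cordon-bleu array.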

Additional observations from a re-analysis of the deposited data

Results flagged for a closer look

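Within a group of 6 arrays, the lowest or highest value stood off from the rest by Dixon's criterion in 6 of 40 groups tested, and chance flags about 1 in 20. On cordon-bleu male entopallium replicate 5, ENSGALT00000014509 was at 7.39 where the next array of the group was at 5.61. ENSTGUT00000004647 was at 7.77 there with the next at 6.18, and ENSTGUT00000009621 was at 10.6 with the next at 11.2. In cordon-bleu female HVC, replicate 6 had 4.70 for XM_002197800 where the next was at 8.13. The median level of female HVC replicate 1 was 7.13, with the next array at 7.18, and the 1st percentile of male HVC replicate 5 was 2.79, with the next at 2.60.

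The tissue difference was not the same in all species by the test of the interaction. Against forest weavers it was higher in cordon-bleus for 1223 transcripts and lower for 1621. Against breeding canaries it was higher for 1215 and lower for 1173. The largest of these differences were 3.84 for XM_002197800 and -4.06 for XM_002196952 against weavers, and 3.65 for ENSTGUT00000012299 and -5.10 for XM_002196952 against canaries.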

How the results depend on the processing

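The adjusted p alone, without the fold change, was the setting that moved the counts. It gave 5822 higher and 8923 lower transcripts in cordon-bleu HVC, 4585 and 5460 in males, 4644 and 6525 in females, 4768 and 6189 in weavers, 6210 and 8128 in canaries, 3964 and 4700 for cordon-bleus against weavers, and 4420 and 5256 against canaries. The fold change alone gave 113 and 116 for males against females. Omission of each cordon-bleu array in turn gave 2133 to 2182 higher and 2079 to 2161 lower transcripts in HVC. For males against females it gave 0 higher and 0 to 1 lower. The other settings kept every count of calls within 1.5 times, and the 7 named transcripts kept their direction and call in the comparisons that they were named for, except that XM_002197800 and XM_002196952 were removed by the filter on dim transcripts in the comparison with weavers. The 1st percentile of the arrays differed by -0.0585 (permutation test, p = 0.0529) after scaling to the same total intensity, and by -0.05896 within the 10 birds with both tissues (exact permutation test, p = 0.0703). The 5th percentile, taken instead of the 1st, differed by -0.07111, with an unadjusted p under 0.05 in the permutation test. A replicate block by number gave 2159 higher and 2114 lower transcripts, with 0 of 4264 calls lost and 9 gained, but a number joined different birds in 4 of 12 pairs. Pairing the 10 birds with both tissues gave 2164 and 2095, with 213 lost and 208 gained and 0 reversed, and a random bird block lost 37 and gained 44. The weaver array and the 2 canary arrays between the tissues were left out as settings chosen after seeing the data, as was male entopallium replicate 5 in the counts shared between species. No background measure accompanies the levels, so no limit of detection was set for dim transcripts.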
